A study of Sus scrofa with 6 samples.

Results

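The homeobox genes of pig skeletal muscle were examined as the probes of a pig gene expression array whose description contained the word homeobox, or whose gene name began like those of the HOX, MEOX, T-box, sine oculis, Iroquois or PITX genes. This rule found 50 of the 43603 probes, 47 through the word homeobox and 3 through the gene name alone, and the 50 probes carried 41 different gene labels. Glycolytic longissimus dorsi muscle of the back (LDM) and oxidative psoas major muscle of the loin (PMM) were compared, with 3 one-colour Agilent arrays for each muscle. Both groups came from female Landrace pigs of 210 days that had received no treatment named in the labels, and the methods of the study took both muscles from the same 3 animals and cut the samples from the middle section of each muscle. The extraction protocol in the labels named adipose tissue, whereas every other label named a muscle, and the arrays were taken as muscle. Nothing in the labels tied a replicate number to an animal, so that P values measured the spread between these 6 arrays.

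Homeobox genes encode transcription factors that bind DNA through a conserved fold, the homeodomain. The HOX genes among them lie in the clusters A, B, C and D, and their paralog number rises along each cluster, with low numbers used towards the head and high numbers towards the tail of the embryo. Cells of the trunk keep part of this positional HOX code in the adult, and proteins of the PBX and MEIS families bind DNA together with HOX proteins. Homeobox genes outside the clusters act in somites and limb muscle, such as MEOX2, or mark connective tissue, such as PRRX1 in limb mesenchyme.

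Sequences of 4 HOX probes, each 60 bases long, are shown as the deposited files give them because the largest contrast within the HOX family lay between these probes. The probes for HOXD3, HOXD8, HOXC9 and HOXD10 shared no run of 20 or more bases with any other probe of the array. The PRRX1 probe and its twin, a second probe without a gene name, are shown with the 53 bases they share in capitals.
HOXD3: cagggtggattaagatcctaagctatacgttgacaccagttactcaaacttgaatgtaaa
HOXD8: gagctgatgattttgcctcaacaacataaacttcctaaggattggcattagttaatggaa
HOXC9: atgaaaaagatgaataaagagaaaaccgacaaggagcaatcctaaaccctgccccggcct
HOXD10: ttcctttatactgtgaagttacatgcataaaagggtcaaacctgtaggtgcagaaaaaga
PRRX1: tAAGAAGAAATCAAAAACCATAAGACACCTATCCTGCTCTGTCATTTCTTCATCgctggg
PRRX1 twin: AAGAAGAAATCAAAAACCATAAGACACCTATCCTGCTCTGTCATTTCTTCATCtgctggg

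The arrays differed in brightness, with a 75th percentile of the processed signal between 595 and 882.7 units and between 58.51% and 72.39% of the spots well above background, and 0 spots were saturated. The tissue labels were checked against marker genes. All 9 skeletal muscle markers, including ACTA1, CKM and TTN, were well above background on all 6 arrays, and their summed level ranged from 3340 to 5366 times the 75th percentile in LDM and from 4116 to 6340 times in PMM. Of 7 slow fibre markers, 5 had a named probe and were tested, such as MYH7 and TNNI1. All 5 had higher means in PMM, 4 of them without overlap between the muscles. Their summed level was 1148 to 1517 in LDM and 1716 to 2892 in PMM. Of 9 fast fibre markers, 7 had a named probe and were tested. They had a median log2 fold change of 0.08, and their summed level overlapped (3220 to 5323 in LDM and 3641 to 6146 in PMM). Of the 6 adipocyte markers, all tested and 0 called, 4 had lower means in PMM and 2 higher ones, with a median log2 fold change of -0.37. PLIN1 (-1.02), CIDEC (-0.86) and ADIPOQ (-0.63) were below 0 and LPL (1.12), the only one without overlap, above it. The summed level was 77.5 to 237.2 in LDM and 82.2 to 256 in PMM. FABP4 made up most of this sum, at a mean log2 level of 6.95 in LDM and 7.05 in PMM.

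Detection separated the members into those with a measurable level in adult muscle and those at background. A total of 27 probes were well above background on all 6 arrays, 2 on 5 arrays, 13 on 1 to 4 arrays and 8 on no array. A probe was tested where all 3 arrays of at least 1 muscle were well above background, which held for 29 of the 50 members, or 58%, close to the 59.23% among all probes of the array. Of the 11 HOX probes, which carried 9 HOX gene names, 7 were tested. On their best array the member probes for HOXC9, HOXD3, HOXD8 and HOXD10 reached 3436 units or more, and those for HOXA5 and HOXB13 at most 192 units. Only 27 members were matched by the files to a pig transcript, and the other 23 were named through an assembled cluster. For 9 of these the cluster matched under 10% of the named protein, so that the name of the gene remained uncertain. They included HOXB13, Emx, TPRXL and BEL1 of the tested members and AmphiNK1b, ALX4 and ZEB2 of the others. HOXD8 and HOXC9 were also named through a cluster. The match covered 73% of the protein for HOXD8, and for HOXC9 no percentage was available.

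The members at background were mostly regulators known from other organs. POU1F1 of the pituitary, POU5F1 of pluripotent cells and LHX9 of the gonad and limb stayed at background on all 6 arrays, with signals from 2.09 to 13.6 units. LHX1, BARHL2, GSX2 and the first OTX2 probe were each well above background on LDM array 1 alone. The lowest signal well above background was 9.21 units on that array, against 19.3 to 28.2 units on the others. The weakly matched AmphiNK1b was well above background on a single PMM array, while the second OTX2 probe was at background throughout. The weakly matched ALX4 was detected on 2 arrays of each muscle. A second MEIS1 probe and the weakly matched ZEB2 were detected on 2 LDM arrays and 1 PMM array. TBXAS1, the only gene name beginning with TBX, encodes thromboxane synthase and has no homeobox, and it too was detected on 2 LDM arrays and 1 PMM array. No gene name in the files began with IRX or PITX, and the rule therefore held no T-box, IRX or PITX gene.

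In cluster A, the member probe for HOXA5, a paralog of the neck and upper trunk, was dim but detected. It had 35.6, 42 and 40.8 units on LDM arrays 1, 2 and 3 and 28.2, 36.7 and 89 units on the PMM arrays. Its log2 fold change of PMM over LDM was 0.29 ± 0.44 (SE, n = 3 arrays per muscle), and its sign rested on PMM array 3, without which it was -0.20. A second HOXA5 probe, which the rule missed, was brighter, at 279 to 461.2 units. Both HOXA11 probes, for a gene of the posterior trunk and forelimb, were well above background on 1 LDM array each and on no PMM array, and were not tested. HOXB13, the posterior end of cluster B, was named through a weak match and showed no separation of the muscles (104.5, 192 and 166.8 units in LDM and 103.5, 174.6 and 137.5 units in PMM).

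In cluster C, the probe named HOXC14 was at background on all arrays, at 3.27 to 5.92 units. RefSeq of Sscrofa11.1 names no HOXC14 in the pig cluster, so that the gene behind this probe remained uncertain. HOXC9, which patterns the thoracic region, was clearly detected, by a probe named through an assembled cluster whose extent of match was not available. It reached 10170, 9791 and 6383 units in LDM and 4194, 5644 and 3170 units in PMM. All LDM arrays lay above all PMM arrays, and after scaling each array to its 75th percentile the mean log2 level was 3.55 ± 0.32 (SD, n = 3) in LDM and 2.62 ± 0.35 in PMM. The level in LDM was thus 1.91-fold that in PMM (log2 fold change -0.93 ± 0.33, SE; limma P = 0.0215, adjusted P = 1; exact permutation P = 0.1).

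Cluster D held the probes with the largest differences, and they ran in opposite directions. HOXD3 was lower in PMM, with 3436, 1802 and 1553 units in LDM and 926.6, 799.1 and 460.4 units in PMM. Its muscles did not overlap, and the level in LDM was 2.85-fold that in PMM (log2 fold change -1.51 ± 0.46, SE; limma P = 0.00999, adjusted P = 1; exact permutation P = 0.1). The description in the files calls this probe HOXD3, whereas its gene number belongs to HOXD1 in the RefSeq annotation of Sscrofa11.1, and both are paralogs of the anterior end of the cluster. HOXD8 reached 10540, 6266 and 4160 units in LDM and 4141, 4306 and 1901 units in PMM. The scaled HOXD8 values overlapped, because PMM array 1 (2.80) exceeded LDM array 3 (2.66), and the log2 fold change was -0.91 ± 0.48 (SE; limma P = 0.0896, adjusted P = 1; exact permutation P = 0.2). It was -0.51 without LDM array 1 and -0.53 without PMM array 3.

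HOXD10, a posterior paralog that patterns the lumbar region and the hindlimb, was higher in PMM. It reached 3944, 1287 and 1558 units in LDM and 10520, 9162 and 5201 units in PMM. All PMM arrays exceeded all LDM arrays, although LDM array 1 stood well above the other LDM arrays, at a log2 level of 2.54 against 0.54 and 1.24. The mean log2 level was 1.44 ± 1.01 (SD, n = 3) in LDM and 3.53 ± 0.61 in PMM, a 4.26-fold difference (log2 fold change 2.09 ± 0.54, SE). By size this was number 61 and by P value number 98 of the 25825 tested probes (limma P = 0.00427, adjusted P = 1; exact permutation P = 0.1). Within cluster D the HOXD8 and HOXD10 probes thus had differences of opposite sign, although that of HOXD8 overlapped between the muscles.

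No HOX probe and no other member passed the adjusted threshold of 0.05: limma called 0 of the 29 tested members, against 8 of all 25825 tested probes (0.031%). At an unadjusted P under 0.05 there were 4 members (HOXD10, HOXD3, HOXC9 and PRRX1), where the share among all tested probes was 2.63%. The values of the muscles did not overlap for 5 members, 3 higher and 2 lower in PMM, where 5.92% of all tested probes did not overlap (3.06% higher and 2.86% lower). With 3 arrays against 3, the exact two-sided permutation test of a single probe cannot go below 0.1, the value that each of these 5 probes had.

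The replicate numbers and the slides were examined because they grouped the arrays. Values of arrays with the same number deviated together, the numbers were taken as pairs, and with the number as a block limma again called 0 members (0.0658% of all tested probes), although the adjusted P fell to 0.17 for HOXD10 and HOXD3, to 0.21 for HOXC9 and to 0.27 for HOXD8 and PRRX1. The SE with this block was 0.31 for HOXD10, 0.22 for HOXD3, 0.18 for HOXC9, 0.22 for HOXD8 and 0.26 for PRRX1. The unadjusted limma P values with it were 7.7e-04, 6.5e-04, 0.0028, 0.0079 and 0.008 in that order. With this block 6 members had an unadjusted P under 0.05, where the share among all tested probes was 11.1%. Replicates 2 and 3 of both muscles shared a slide each, whereas LDM array 1 and PMM array 1 had a slide of their own. Within the shared slides HOXD10 differed by 2.98 and 1.68 on the log2 scale, and by 1.61 between the arrays of replicate 1. HOXD3 differed by -1.02 and -1.81 within the slides and by -1.70 between the arrays of replicate 1. Corresponding values were -0.64, -1.06 and -1.09 for HOXC9, and -0.39, -1.18 and -1.16 for HOXD8.

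Both HOXD10 and HOXD3 passed the adjusted threshold under 2 other treatments of the slides. With the slide as a random block limma called 2 members, HOXD10 (log2 fold change 2.28, adjusted P = 0.0129) and HOXD3 (-1.43, adjusted P = 0.0262), while 1.16% of all tested probes were called, and HOXC9 had an adjusted P of 0.0514. The replicate block was also fitted without replicate 1, a setting chosen after seeing the data that leaves the shared slides alone. There limma called the same 2 members (2.33, adjusted P = 1.64e-08, and -1.42, adjusted P = 4.01e-04) and 790 of all 26688 tested probes. Only 2 arrays per muscle remained, so that these P values leaned on the variance limma pools over all probes and are not firm evidence. The same block called 0 members without replicate 2 or without replicate 3, where limma gave HOXD10 an adjusted P of 0.344 and 0.419 and HOXD3 of 0.336 and 0.419. Without LDM array 1, the array with the brightest HOXD10 signal of its muscle, the difference in HOXD10 was 2.64 and that in HOXD3 -1.11.

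The contrast within the HOX genes was also taken within each array, where the scaling of the array drops out. The ratio of the HOXD10 signal to the HOXD3 signal was 3.50, 3.52 and 3.50 on the log2 scale on the PMM arrays and 0.20, -0.48 and 0.00 on the LDM arrays. Against HOXD8 it was 1.35, 1.09 and 1.45 in PMM and -1.42, -2.28 and -1.42 in LDM. Against the mean of HOXD3, HOXD8 and HOXC9 the mean log2 ratio was 1.91 ± 0.15 (SD, n = 3) in PMM and -1.30 ± 0.54 in LDM, a change of 3.21, or 9.24-fold. Only the difference in a ratio between the muscles can be read, because its size on an array depends on how strongly each probe hybridizes. These ratios were formed after HOXD10 had been seen to be the highest and HOXD3 the lowest of the differences, and they are given as a description without a test.

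PBX3 and MEIS1, cofactors of the HOX proteins, showed no separation between the muscles. PBX3 had signals of 10380, 3884 and 4102 units in LDM and 5950, 4531 and 2677 units in PMM, and LDM array 1 was its brightest array, as for HOXD8, HOXD3 and, within LDM, HOXD10. MEIS1 reached 87.5, 175.3 and 55.4 units in LDM and 37.6, 100.1 and 69.6 units in PMM by the tested probe. The log2 fold changes were -0.30 ± 0.53 for PBX3 and -0.47 ± 0.42 for MEIS1 (SE, n = 3), each within the spread between arrays.

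Of the 11 HOX cofactor genes listed, only 3 had a named probe. All 3 were tested and 0 called, with a median log2 fold change of -0.30. Among other genes that act with HOX factors, WDR5, a subunit of trithorax complexes, was the only one of 25 Polycomb and trithorax genes with a named probe and had a log2 fold change of -0.15. Of 19 genes of the retinoic acid pathway, which sets HOX expression in the embryo, 9 had a named probe. Of these, 6 were tested and 0 called, with a median log2 fold change of -0.19 beside -0.01 over the 2909 genes tested. CRABP1, which binds retinoic acid inside the cell, reached 591.2, 465.8 and 343.6 units in LDM and 137.1, 213.5 and 98.5 units in PMM. Its muscles did not overlap (log2 fold change -1.58 ± 0.37, SE; limma P = 0.00234, adjusted P = 1; exact permutation P = 0.1). RARB, a retinoic acid receptor near background, did not overlap in the other direction (log2 fold change 0.49 ± 0.35, SE). It was well above background on all 3 arrays only in PMM, the higher muscle, and entered the test through it.

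MEOX2, a factor of the somites and of limb muscle, was detected at 106.6, 93.4 and 117.9 units in LDM and at 82.3, 104.8 and 82 units in PMM (log2 fold change -0.15 ± 0.32, SE). Of 16 myogenic factors and their partners, only 5 had a named probe. All 5 were tested and 0 called, with a median log2 fold change of -0.32. MSTN, which encodes the growth inhibitor myostatin, was the only one of them without overlap, at 1608, 1688 and 1389 units in LDM and 874.7, 1384 and 497.3 units in PMM (log2 fold change -0.79 ± 0.39, SE; limma P = 0.0734, adjusted P = 1; exact permutation P = 0.1).

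Paired-related genes of mesenchyme had mean differences of opposite sign, although that of PRRX2 overlapped between the muscles. PRRX1 reached 9129, 13060 and 6401 units in LDM and 26340, 18980 and 11010 units in PMM. After scaling, all PMM arrays lay above all LDM arrays, with means of 4.69 ± 0.73 and 3.64 ± 0.32 on the log2 scale (SD, n = 3), a 2.06-fold difference (log2 fold change 1.05 ± 0.42, SE; limma P = 0.0352, adjusted P = 1; exact permutation P = 0.1). Replicate 1 differed most, by 1.72, whereas the differences within the shared slides were 0.69 and 0.73, and with the slide as a random block the value was 0.78. The twin probe shown above reached 9165, 13240 and 6772 units in LDM and 25640, 18300 and 12420 units in PMM, and since the probes share 53 bases it is no independent measurement.

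PRRX2, the paralog of PRRX1, had a mean log2 level of 0.60 ± 0.50 (SD, n = 3) in LDM and 0.03 ± 0.43 in PMM. Its arrays overlapped, and its log2 fold change was -0.57 ± 0.38 (SE, limma adjusted P = 1), with PMM below LDM for each replicate number. Of 7 fibroblast markers only 5 had a named probe (COL1A1, COL1A2, COL3A1, DCN and TCF7L2). All 5 were tested and 0 called. All 5 had lower means in PMM, 0 of them without overlap, with a median log2 fold change of -0.44. Their summed level was 98.3 to 221 in LDM and 71.8 to 152.7 in PMM, none at 0. DCN made up most of this sum, at a mean log2 level of 7.20 in LDM and 6.76 in PMM. The part of these markers in the homeobox values was not tested. In whole muscle, fewer cells of a type and less RNA per cell cannot be told apart.

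PROX1, which specifies lymphatic endothelium and belongs to the prospero family, was the remaining member without overlap. It reached 331.2, 453.4 and 232.7 units in LDM and 363, 443.8 and 448.5 units in PMM. Array 2 had the highest 75th percentile in both muscles, and after scaling all PMM values exceeded the LDM values, by a log2 fold change of only 0.45 ± 0.30 (SE; limma P = 0.173, adjusted P = 1; exact permutation P = 0.1). The 5 endothelial markers PECAM1, CDH5, KDR, VWF and TEK all had higher means in PMM, with a median log2 fold change of 0.28, 0 of them without overlap, and a summed level of 53 to 162.3 in LDM and 90.4 to 155.9 in PMM, none at 0. The slow fibre markers were also higher in PMM, and the part of either in the PROX1 value was not tested.

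The remaining tested members overlapped between the muscles. HOPX, an atypical homeodomain protein listed in the files as OB1, had 167.7, 393.6 and 399.3 units in LDM and 346.1, 577 and 410.2 units in PMM, and its log2 fold change of 0.64 ± 0.38 (SE) rested on replicates 1 and 2, since replicate 3 differed by -0.02. TSHZ2, a zinc finger homeobox gene, had a log2 fold change of 0.08 by the probe with the stronger signal and 0.62 by the other, the latter with 379.9 units on PMM array 3 and 59.9 to 122.3 units elsewhere. POU2F1, the widely expressed factor OCT1, and ZHX1, with zinc fingers and homeoboxes, were detected on all arrays by 2 probes each, with values from -0.32 to -0.05 and from 0.02 to 0.37. DBX2, a neural gene close to background, had a log2 fold change of 0.54, HMBOX1, which binds telomeric DNA, 0.26, and the weakly matched Emx, TPRXL and BEL1 had 0.14, 0.09 and -0.54. For POU2F1, TSHZ2 and ZHX1, both tested probes had the same sign.

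Over the 29 tested members, 15 had a higher and 14 a lower mean in PMM, and the median log2 fold change was 0.02 beside -0.04 for all tested probes. Values ran from -1.51 for HOXD3 to 2.09 for HOXD10. An absolute log2 fold change of at least 0.5 was reached by 10 members (HOXD10, PRRX1, HOPX, 1 TSHZ2 probe and DBX2 above 0, and HOXD3, HOXC9, HOXD8, PRRX2 and BEL1 below), where 13.7% of all tested probes reached it, and the median absolute value was 0.31 beside 0.20. DBX2 and BEL1 were well above background on all 3 arrays only in their higher muscle, and entered the test through it. All 3 pairs of arrays with the same number were higher in PMM for 4 members and lower for 4 members, where the shares among all tested probes were 16.3% and 19.3%.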

How the data were processed

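The authors deposited 1 scanner file per array, with linear spot intensities of the Cy3 channel from Agilent Feature Extraction 10.5.1.1, which had subtracted the local background and marked outlier spots and spots well above background; whether an intensity is well above background is a yes or no entry in the deposited files. The authors' methods refer to an earlier report for the array workflow and give no normalization or test. The value table of the series differed from these intensities by at most 0.005 units.

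Control spots (43803 spots and 43603 probes remained) and outlier spots (6 to 161 per array) were left out, log2 of the intensity minus log2 of the array's 75th percentile was taken, and repeated spots were averaged. A probe was tested when well above background on all 3 arrays of either muscle, with at least 2 values per muscle. The muscles were compared with lmFit and eBayes of limma 3.58.1 (R 4.3.3), two-sided and without a block; P values were adjusted by Benjamini-Hochberg over all 25825 tested probes, with 0.05 as the threshold. The fit was tested on simulated data. Single probes were compared by an exact permutation test, which, like the fit without a block, takes no account of pairs. The number of arrays limits the precision.

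Probes were named by RefSeq accession (3054), by gene number (1227) or by the file (865), and members by their descriptions. RefSeq of Sscrofa11.1 gave names only, and no genome position is given because the files give none. Named by rule were HOX probes, muscle and mesoderm patterning genes and up to 12 other members without overlap. Members and lists were chosen with earlier results of these data known, and other genes were picked after their values were seen. Some members are counted but not reported singly here. The slow fibre and other marker lists are described by counts.

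Deviations from the group mean correlated at 0.616, 0.696 and 0.56 for arrays of the same replicate number and from -0.536 to -0.0103 otherwise, so same-numbered arrays were treated as pairs, which rests on the values and not on a label. Deviations within a muscle cancel out over its arrays. The positive correlations therefore bring negative ones with them, which add no support for pairs. Replicate number coincided with scan day, so that pairs of animals and shared scan days cannot be told apart. Alternatives covered the replicate block, the slide as a random block, other scalings, normexp background correction, filters and leaving out arrays.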

Additional observations from a re-analysis of the deposited data

How the results depend on the processing

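Of 252 values of 12 probes named by rule under 21 other settings, 236 kept direction and call, 4 became called and 12 turned direction, over 5 of the probes. HOXC9, HOXD3, HOXD8, HOXD10, PRRX1, PRRX2 and PROX1 kept their direction under each setting run. With the replicate block the number of all probes called rose from 8 to 17 and the members called stayed at 0. The block without replicate 1, 2 or 3, chosen after seeing the data, gave 790, 1 and 0 probes and, without replicate 1, 2 members; quantile normalization with the block, also chosen then, gave 0 probes. The slide as a random block gave 300 probes and 2 members. Probes called fell to 0 with the percentile taken over detected probes, without the detection filter, with detection on all 6 arrays, with outlier spots kept and with a single probe per gene, to 1 with normexp, and to between 0 and 1 when any array was left out. The cause was not tested.

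Normexp moved the median of all probes from -0.04 to 0.10, and turned HOXB13 (0.22), MEOX2 (0.12) and MEIS1 (0.24). When each array was left out in turn, the sign changed for HOXA5 (-0.20 to 0.55), HOXB13 (-0.25 to 0.11), MEOX2 (-0.37 to 0.011) and PBX3 (-0.69 to 0.21). The paired fit without replicate 3 turned HOXA5 (-0.094), HOXB13 (0.096) and MEOX2 (0.069). The probes named as turned by normexp were dim, at no more than 192 units, whereas PBX3 had signals from 2677 units upwards.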

Other observations

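Probes that the rule missed by its wording were looked up, after the values were seen, because they belong to the same families. TBX3, a T-box gene of limb and mammary gland listed under a gene number, reached 267.3, 763.6 and 789.4 units in LDM and 1210, 1447 and 1341 units in PMM. Its muscles did not overlap (log2 fold change 1.39 ± 0.43, SE; limma P = 0.0109, adjusted P = 1, and 0.27 with the replicate block; exact permutation P = 0.1), and within the shared slides it differed by 1.08 and 0.71. TBX2, its close relative, overlapped, with a log2 fold change of 0.01 ± 0.44 (SE). IRX1, an Iroquois homeobox gene, reached 44, 48.6 and 60.9 units in LDM and 4.67, 4.93 and 23.4 units in PMM (limma adjusted P = 1). It was not well above background on any PMM array and entered the test through LDM, its higher muscle. With dim PMM signals raised to the lowest signal well above background on their array, LDM was 2.15-fold higher. That value is no firm bound, because it holds only for the deposited processed signals. With normexp background correction the log2 fold change was 0.017. A second HOXA5 probe was brighter than the member and differed by -0.03 ± 0.28 (SE) on the log2 scale, and probes for HOXB3 and for an unnumbered Hox protein were at background on all 6 arrays.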
